A study of Homo sapiens with 6 samples.

Results

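The genes examined here are 10 genes of the NOTCH pathway: the receptor genes NOTCH1, NOTCH2 and NOTCH3, the ligand genes JAG1, JAG2 and DLL1, the nuclear factor gene RBPJ, and the target genes HES1, HES4 and HEY1. They were taken by gene name from the deposited expression table, which lists 58735 genes, and all 10 were found in it. The table holds 6 RNA sequencing libraries of HCT116SCs, the CD44+CD326+ cells that were isolated with magnetic beads from the colorectal cancer line HCT116 and grown as tumor spheres in serum-free medium with EGF, bFGF and B27. The spheres were dissociated and transfected with liposomes carrying negative control siRNA (NC, labelled wild type, n = 3 libraries) or PSCA siRNA (siPSCA, labelled PSCA knockdown, n = 3 libraries), and all cells were harvested after 48 h. All libraries thus come from 1 cell line, and all cells received an siRNA and the transfection reagent. Which of the PSCA siRNA sequences was used for sequencing is not stated, and nothing says whether the replicates were separate cultures, so that the p-values measure only the spread between these libraries.

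NOTCH signaling passes between touching cells. A ligand of the Jagged or Delta family on one cell binds a NOTCH receptor on its neighbor, the receptor is cut first by an ADAM protease and then by gamma-secretase, and the freed intracellular part enters the nucleus. There it binds RBPJ, the DNA-binding protein of the pathway, which otherwise sits on target genes with corepressors, and genes of the HES and HEY families of transcriptional repressors are switched on. In the intestinal epithelium NOTCH signaling is known for keeping crypt cells undifferentiated and for holding back the secretory lineage, in part through HES1.

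The promoter windows of HES1, HES4 and RBPJ are shown because HES1 and HES4 are the measured targets of RBPJ among the 10 genes, and because RBPJ itself had the lowest adjusted p of the 10. Each window runs from 250 bases before to 50 bases after a RefSeq transcript start, is written 5′ to 3′ on the strand of the gene, and comes from GRCh38.p14. Capitals mark TGGGAA, the core of the RBPJ binding sequence, or its reverse complement TTCCCA. The HES1 window lies on the plus strand at chr3:194135898-194136197, the HES4 window on the minus strand at chr1:1000048-1000347, and the RBPJ window, chosen among 5 RefSeq starts along the gene because it alone held the letters, on the plus strand at chr4:26319496-26319795.
HES1: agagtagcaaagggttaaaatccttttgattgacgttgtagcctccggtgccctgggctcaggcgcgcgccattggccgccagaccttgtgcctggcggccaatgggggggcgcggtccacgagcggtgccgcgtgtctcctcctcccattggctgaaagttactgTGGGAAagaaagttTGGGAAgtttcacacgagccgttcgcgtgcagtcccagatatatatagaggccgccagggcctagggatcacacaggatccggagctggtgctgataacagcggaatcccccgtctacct
HES4: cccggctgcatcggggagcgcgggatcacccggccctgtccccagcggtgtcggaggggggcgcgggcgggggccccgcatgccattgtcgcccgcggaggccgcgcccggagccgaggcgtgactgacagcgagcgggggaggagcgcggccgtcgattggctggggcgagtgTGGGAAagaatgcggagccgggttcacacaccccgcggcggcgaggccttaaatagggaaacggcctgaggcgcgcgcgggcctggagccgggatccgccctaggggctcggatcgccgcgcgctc
RBPJ: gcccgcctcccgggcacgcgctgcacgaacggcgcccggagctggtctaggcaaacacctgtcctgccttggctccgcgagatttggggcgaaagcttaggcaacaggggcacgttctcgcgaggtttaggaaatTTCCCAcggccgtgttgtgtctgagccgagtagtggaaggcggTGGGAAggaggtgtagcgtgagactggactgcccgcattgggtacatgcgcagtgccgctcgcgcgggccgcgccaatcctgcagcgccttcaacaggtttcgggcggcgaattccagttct

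In the HES1 window TGGGAA was found in 2 places, beginning 84 and 70 bases before the start site, both on the strand of the gene. The HES4 window held it once, 76 bases before the start. The longest run of letters shared by these windows was TGTGGGAAAGAA, 12 bases long, which begins 86 bases before the HES1 start and 78 bases before the HES4 start and was found on either strand in 8 of 34943 promoter windows (0.0229%). These 8 include the HES1 and HES4 windows from which the run was picked, so its rarity is not a test. The shorter TGGGAA was held by 24% of all windows on one strand or the other, and by 3.79% more than once. In the RBPJ window it was found once on each strand, 115 and 72 bases before the start. None of the other RBPJ windows, nor those of NOTCH1, NOTCH2, NOTCH3, JAG1 or JAG2, held these letters. CACNAG, the N box that HES proteins bind, was searched on both strands as well. It was found in 4 places in the HES1 window and in 0 places in the HES4 window. The NOTCH1 window and an RBPJ window not shown here held it in 2 places each, and the NOTCH2 and NOTCH3 windows in 1. In the JAG1, JAG2 and other RBPJ windows it was found in 0 places. Of all windows, 38% held CACNAG and 8.96% held it more than once. DLL1 and HEY1 are not shown.

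PSCA, the targeted gene, was barely measured, with 4, 12 and 15 reads in NC and 9, 9 and 7 in siPSCA (log2 fold change -0.07, 95% interval -0.35 to 0.21, limma adjusted p = 0.728). Its mean FPKM was 0.340 in NC and 0.269 in siPSCA, and the log2(FPKM + 1) scale used here understates changes of genes this low. A knockdown was thus not seen in these RNA values, and its size could not be measured from so few reads. The paper reports less PSCA protein in HCT116SCs by Western blot after each of its PSCA siRNAs, which is a measure of protein and not of RNA. The total of reads on genes lay between 16099716 and 17302219 per library. FPKM divides the reads of a gene by its length and by the read total of the library, 16803235 to 18218661 as recovered from the values, so that 1 read was worth 0.0549 to 0.0595 on a 1-kilobase gene. The epithelial markers EPCAM, CDH1, KRT8, KRT18 and KRT19 were all measured above an FPKM of 1, with a sum of 723.9 to 778.7 in NC and 794.8 to 826.0 in siPSCA. Within this sum KRT19 and KRT8 were higher in every siPSCA library than in any NC library, whereas CDH1 was lower in every siPSCA library, at 18.8 to 19.9, than in any NC library, and KRT18 overlapped. The antigens used for sorting, CD44 and CD326 (EPCAM), summed to 175.8 to 210.4 in NC and 154.4 to 156.9 in siPSCA. CD44 was lower in every siPSCA library (59.6 to 62.4) than in any NC library (79.2 to 87.5). EPCAM overlapped, with 94.7 to 122.9 in NC and 93.3 to 97.3 in siPSCA. The 5 intestinal markers summed to 1.99 to 2.73 in NC and 4.09 to 4.30 in siPSCA. Of these only CDX2 reached a mean FPKM of 1, with 1.68 to 2.51 in NC and 3.99 to 4.18 in siPSCA, CDH17 was at 0.153 to 0.312 in NC and at most 0.0704 in siPSCA, LGR5 and VIL1 stayed under 0.1 and CDX1 was at 0. The 5 leukocyte markers summed to at most 0.535 and the 5 endothelial markers to at most 0.336. Of the 5 fibroblast markers only COL1A1 reached a mean FPKM of 1 and LUM was at 0, with a sum of 3.40 to 5.67 in NC and 6.06 to 6.61 in siPSCA. The part of these marker differences in the results was not tested.

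1 library stood apart. NC 3 differed from NC 1 and NC 2 along the GC content of the genes (Spearman -0.56 over 13792 genes, which are not independent replicates), and the log2 fold change between the groups also followed GC content (Spearman correlation 0.66). Among the 1990 tested genes with a GC content of 60% or more, 64.1% were higher in siPSCA and 1.31% lower at an adjusted p under 0.05. Among the 2276 genes under 40%, 2.94% were higher and 58.4% lower. The GC content of the 10 genes ranged from 38.0% for RBPJ to 73.9% for HES4. The fold changes of the tested members are therefore given with all 6 libraries, without NC 3, and after a trend on GC content and gene length had been removed from each library (GC and length correction). Whether the trend belongs to the libraries or to the siRNA cannot be told apart.

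For the comparison of siPSCA with NC, limma was fitted to log2(FPKM + 1) of the 13796 genes whose mean FPKM was 1 or more. Of the 10 genes, 9 passed this minimum and HEY1 did not. RBPJ was lower in siPSCA and NOTCH1 was higher, both past an adjusted p of 0.05. The other 7 did not pass. The count of 2 among 9 (22.2%) is set against 50.7% of all tested genes called in this comparison, 26.6% higher and 24.2% lower. The FPKM ranges of the groups did not overlap for 6 of the 9 genes (NOTCH1, NOTCH3, JAG2, DLL1, RBPJ and HES4), whereas this held for 64.5% of all tested genes. The median log2 fold change was 0.27 over the 9 genes and 0.01 over all tested genes. After GC and length correction it was -0.03 for the 9 genes and 0.02 for all genes, and only RBPJ was called, against 39.6% of all genes. The share of all genes called was 53.8% without NC 3, where 4 of the 9 were called, and 42.9% with both steps, where 2 were. For the other settings used below it was 48.4% without NC 1, 43.7% without NC 2, 33.3% without siPSCA 1, 34.1% without siPSCA 2, 39.7% without siPSCA 3, 48.4% with limma-voom on reads, 49.9% with a pseudocount of 0.1, 35.7% with TPM, 16.3% without the FPKM minimum, 48.7% with a replicate block and 33.7% with the block and trend removal.

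**Figure D1:**
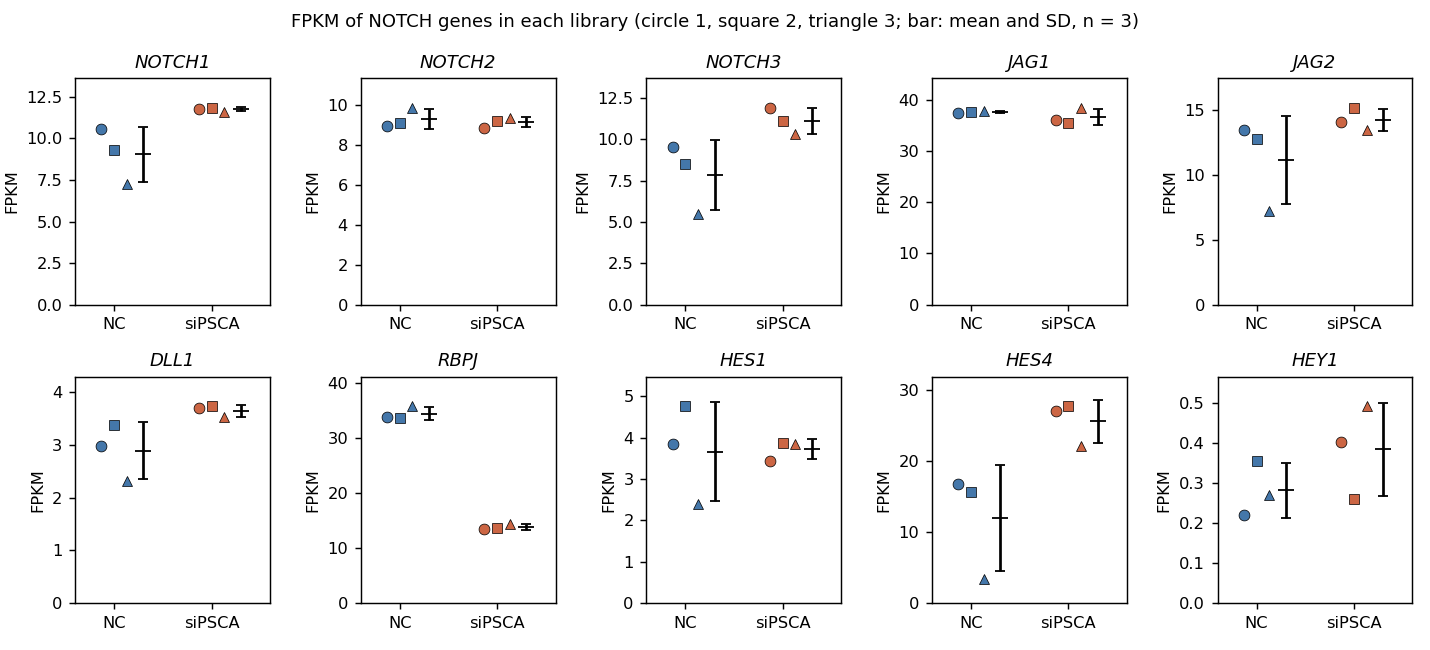
FPKM (linear axis from 0) of the 10 NOTCH pathway genes in each of the 6 libraries, NC in blue and siPSCA in orange, with the mean and SD of 3 libraries beside the points. RBPJ drops from 33.7 to 35.7 in NC to 13.4 to 14.3 in siPSCA, JAG1 and NOTCH2 overlap between the groups, and NC 3 is the lowest NC library for NOTCH1, NOTCH3, JAG2, DLL1, HES1 and HES4.

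RBPJ encodes the factor through which all NOTCH receptors act on DNA. Its FPKM was 33.8, 33.7 and 35.7 in NC 1, NC 2 and NC 3 and 13.4, 13.6 and 14.3 in siPSCA 1, siPSCA 2 and siPSCA 3. Every siPSCA library lay far under every NC library, and the spread within either group was small. RBPJ fell from a mean of 34.4 ± 1.14 (SD, n = 3) to 13.8 ± 0.500 (SD, n = 3), or to 0.401 of its NC level. On the log2(FPKM + 1) scale the change was -1.26 (SE, the standard error, 0.05, 95% interval -1.38 to -1.14, limma adjusted p = 0.000118). Bulk RNA does not tell less RBPJ RNA per cell from fewer cells that express it. In reads this was 5256, 5426 and 5693 against 2092, 2242 and 2416. The exact permutation test on FPKM gave p = 0.1 (2-sided), the smallest value that 3 libraries against 3 allow here. Without NC 3 the log2 fold change was -1.23, and after GC and length correction it was -0.90 (95% interval -0.98 to -0.82, limma adjusted p = 4.5e-05). Among all tested genes 96 had a lower log2 fold change than RBPJ, and among the 2276 tested genes with a GC content under 40%, the class of RBPJ, 30 did. After correction 232 genes had a lower value than RBPJ.

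RBPJ (ENSG00000168214) extends along chromosome 4 from 26163455 to 26435131 on the plus strand in GENCODE release 29, and its 31 annotated transcripts cover 9253 exonic bases. Values per transcript were not analysed here, so the drop cannot be assigned to one of its start sites. The genome also holds processed copies of RBPJ. The 4 copies in the table together had at most 5 reads in any library. RBPJL, the paralog of RBPJ, had 2, 9 and 6 reads in NC and 5, 4 and 5 in siPSCA, at most 0.187 FPKM.

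Of the receptors, NOTCH1 and NOTCH3 had higher values in siPSCA and NOTCH2 did not. NOTCH1 (chromosome 9, 136494433 to 136545786, minus strand) encodes a receptor that is present in intestinal crypts. Its FPKM was 10.6, 9.29 and 7.27 in NC and 11.8, 11.8 and 11.6 in siPSCA. All siPSCA libraries lay above all NC libraries, and the NC libraries were spread more widely. The means were 9.04 ± 1.66 and 11.7 ± 0.117 (SD, n = 3 each), and NOTCH1 rose by 0.36 on the log2 scale (limma adjusted p = 0.0484, SE 0.12). This call sat at the threshold. Without NC 3 the log2 fold change was 0.22 and past it. It was lost without NC 2 (adjusted p = 0.0855), without siPSCA 1 (0.120), without siPSCA 2 (0.120) and without siPSCA 3 (0.105), all from limma. After GC and length correction the log2 fold change of NOTCH1, whose GC content is 62.9%, had the opposite sign, -0.13 (limma adjusted p = 0.0672).

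NOTCH3 (chromosome 19, 15159038 to 15200981, minus strand) also had its lowest value in NC 3. Its FPKM was 9.52, 8.50 and 5.49 in NC and 11.9, 11.1 and 10.3 in siPSCA. The groups did not overlap, and NC 3 lay well below the other NC libraries. The log2 fold change was 0.48 (limma adjusted p = 0.0647, SE 0.18), which did not pass the threshold. Without NC 3 it was 0.27 and passed (limma adjusted p = 0.0252), as it did without NC 1 (0.62, limma adjusted p = 0.0324). After GC and length correction it was -0.02 (95% interval -0.19 to 0.15).

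NOTCH2 (chromosome 1, 119911553 to 120069626, minus strand), the longest of these genes with 16807 exonic bases, had an FPKM of 8.92, 9.10 and 9.83 in NC and 8.85, 9.16 and 9.34 in siPSCA. The groups overlapped fully. Its log2 fold change was -0.02 with a 95% interval of -0.16 to 0.11 (limma adjusted p = 0.752) and 0.01 when NC 3 was left out, and the interval after GC and length correction was -0.04 to 0.16. NOTCH2 shares long stretches with NOTCH2NLA, to which 17, 26 and 24 reads were assigned in NC and 6, 9 and 11 in siPSCA, against 2516 to 2860 reads on NOTCH2 in the 6 libraries. NOTCH4, a receptor of endothelial cells, was at 0.0733 to 0.0774 FPKM in NC and 0.0450 to 0.115 in siPSCA.

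Of the ligands, JAG1 was by far the highest, and no ligand passed the test. JAG1 (chromosome 20, 10637684 to 10673999, minus strand), a ligand known as a target of WNT signaling in colorectal tumors, had an FPKM of 37.5, 37.7 and 37.8 in NC and 36.0, 35.6 and 38.4 in siPSCA. The siPSCA values fell on both sides of the NC values. The log2 fold change was -0.04 with a 95% interval of -0.15 to 0.08 (limma adjusted p = 0.528), so a change of more than about 0.15 in either direction lay outside the interval. It was -0.04 when NC 3 was left out and -0.03 after GC and length correction.

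JAG2 (chromosome 14, 105140981 to 105168824, minus strand) had an FPKM of 13.4, 12.7 and 7.21 in NC and 14.1, 15.1 and 13.4 in siPSCA. The lowest siPSCA library exceeded the highest NC library by little (13.45 against 13.42), and NC 3 lay far below both other NC libraries. The log2 fold change was 0.37 (limma adjusted p = 0.191, SE 0.21). It was 0.11 when NC 3 was left out and -0.21 after GC and length correction, neither past the threshold. With both steps together, a combination chosen after seeing the data, it was -0.31 and past the threshold (limma adjusted p = 0.00442). DLL1 (chromosome 6, 170282206 to 170306565, minus strand), a Delta ligand, had an FPKM of 2.97, 3.38 and 2.32 in NC and 3.70, 3.73 and 3.52 in siPSCA. All siPSCA values were above the NC values. The log2 fold change of DLL1 was 0.27 (limma adjusted p = 0.0846, SE 0.11), 0.36 and past the threshold without NC 2 (limma adjusted p = 0.0397), 0.16 and not past it without NC 3 (limma adjusted p = 0.105), and -0.13 after GC and length correction. Of the ligand genes outside the 10, DLL4 was at 0.488 to 0.700 FPKM in NC and 0.559 to 0.839 in siPSCA, and DLL3 had 4 reads in all NC libraries and 7 in all siPSCA libraries.

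The targets HES1 and HES4 did not behave alike in the uncorrected values. HES4 (chromosome 1, 998962 to 1000172, minus strand) encodes a bHLH repressor for which the mouse genome has no counterpart. Its FPKM was 16.8, 15.6 and 3.32 in NC and 27.0, 27.7 and 22.1 in siPSCA. The groups did not overlap, and NC 3 held 64 reads where NC 1 and NC 2 held 315 and 304. The means of HES4 were 11.9 ± 7.45 and 25.6 ± 3.04 (SD, n = 3 each), a ratio of 2.15, with a log2 fold change of 1.29 (SE 0.54, 95% interval -0.01 to 2.59, limma adjusted p = 0.0885). NC 3 decided this value. Without it the NC mean was 16.2, the ratio was 1.58, and the log2 fold change was 0.62 (SE 0.10) and past the threshold (limma adjusted p = 0.00393). HES4 had the highest GC content of the 10 genes. After GC and length correction its log2 fold change was 0.26 (95% interval -0.44 to 0.95), and with NC 3 also left out it was -0.09 (95% interval -0.26 to 0.07).

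HES1 (chromosome 3, 194136145 to 194138732, plus strand), the best known target of NOTCH in the intestine, had an FPKM of 3.84, 4.76 and 2.39 in NC and 3.44, 3.87 and 3.86 in siPSCA. The siPSCA values lay inside the range of NC. The log2 fold change of HES1 was 0.05 with a 95% interval of -0.41 to 0.51 (limma adjusted p = 0.840), -0.16 without NC 3 (95% interval -0.40 to 0.07), and -0.02 after GC and length correction (95% interval -0.47 to 0.44). HES1 had 85 to 171 reads per library, and changes inside these intervals were not excluded. The SE was 0.19 with all 6 libraries and 0.095 without NC 3. From the summed reads of HES1, 389 and 407, the depth-scaled ratio was 1.02, with an exact binomial 95% interval of 0.883 to 1.17. That interval covers counting error only. HEY1, on chromosome 8, was close to the limit of measurement, with 12, 20 and 15 reads in NC and 22, 15 and 29 in siPSCA. Its FPKM did not exceed 0.493 in any library. From the summed reads, 47 and 66, the depth-scaled ratio was 1.37, with a 95% interval (exact binomial) of 0.925 to 2.03 that covers counting error only.

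**Figure D2:**
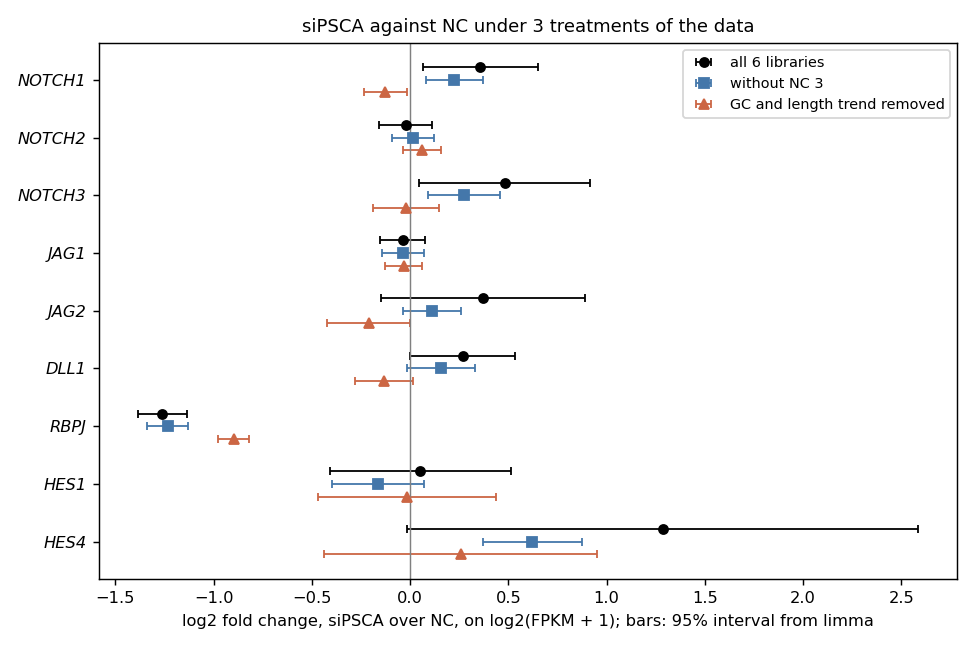
Log2 fold change of siPSCA over NC with its 95% interval from limma for the 9 tested genes, with all 6 libraries (black circles), without NC 3 (blue squares) and after GC and length correction (orange triangles). RBPJ lies between -1.26 and -0.90 in all 3 settings, JAG1 and NOTCH2 lie near 0, and NOTCH1, NOTCH3, JAG2, DLL1 and HES4 move toward or past 0 from the first to the last setting.

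Since FPKM is a value per length, the levels of the 10 genes can be set in order. In NC the order from the highest mean FPKM was JAG1 (37.7), RBPJ (34.4), HES4 (11.9), JAG2 (11.1), NOTCH2 (9.29), NOTCH1 (9.04), NOTCH3 (7.83), HES1 (3.66), DLL1 (2.89) and HEY1 (0.282). The ranges of neighbors overlapped from HES4 through NOTCH3 and between HES1 and DLL1, so these neighbors could not be ranked. JAG1 and RBPJ stood at the 93.6th and 92.7th percentile of the 13796 tested genes by mean FPKM in NC. In siPSCA the order was JAG1 (36.7), HES4 (25.6), JAG2 (14.2), RBPJ (13.8), NOTCH1 (11.7), NOTCH3 (11.1), NOTCH2 (9.12), HES1 (3.72), DLL1 (3.65) and HEY1 (0.385). In these uncorrected values RBPJ thus went from the second to the fourth place, where its range overlapped that of JAG2. HES4 took the second place. On the log2(FPKM + 1) scale after GC and length correction, RBPJ in siPSCA (4.06 to 4.08) lay above JAG2 (3.59 to 3.70). HES4 then overlapped between the groups, at 3.24 to 4.34 in NC and 4.11 to 4.31 in siPSCA.

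The make-up of each family was compared by the share of each gene in the summed FPKM. NOTCH2 made up 30.8%, 33.8% and 43.5% of the receptor FPKM in NC and 27.2%, 28.6% and 29.9% in siPSCA. Each siPSCA share was lower than each NC share, with a mean difference of -7.51 percentage points (exact permutation test, p = 0.1, 2-sided), but -3.77 without NC 3 and 2.24 after GC and length correction. JAG1 held 69.6%, 70.1% and 79.9% of the ligand FPKM in NC and 67.0%, 65.3% and 69.4% in siPSCA, and was the major ligand transcript in every library. Among the targets HES4 held 80.5%, 75.3% and 55.5% in NC and 87.5%, 87.0% and 83.5% in siPSCA, a mean difference of 15.6 percentage points that was 8.11 without NC 3. The target shares were not computed after GC and length correction, since HEY1 was under the FPKM minimum. The corrected log2 fold changes were 0.26 for HES4 and -0.02 for HES1, neither past the threshold. The summed receptor FPKM was 26.2 ± 3.27 in NC and 32.0 ± 0.639 in siPSCA (SD, n = 3 each, exact permutation test, p = 0.1, 2-sided). These sums are uncorrected, and NC 3 had the lowest, 22.6. After GC and length correction no receptor was higher past the threshold, with log2 fold changes of -0.13 for NOTCH1, 0.06 for NOTCH2 and -0.02 for NOTCH3. The receptor sum itself was not computed after correction, and the part of the GC and length trend in its difference was not tested. Set against RBPJ, the FPKM of NOTCH2, which did not differ in itself beyond the spread, was 0.270 ± 0.00569 of that of RBPJ in NC and 0.662 ± 0.0102 in siPSCA (SD, n = 3 each).

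NC 3 lay below the mean of NC 1 and NC 2 for the GC-rich genes of the set. The ratio was 0.205 for HES4, 0.552 for JAG2, 0.609 for NOTCH3, 0.732 for NOTCH1 and 0.731 for DLL1, and it was 1.01 for JAG1, 1.06 for RBPJ and 1.09 for NOTCH2. HES1, with a GC content of 49.9%, also had a low ratio, 0.556. The part of GC content in the differences between siPSCA and NC was not tested beyond the removal of the trend.

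**Figure D3:**
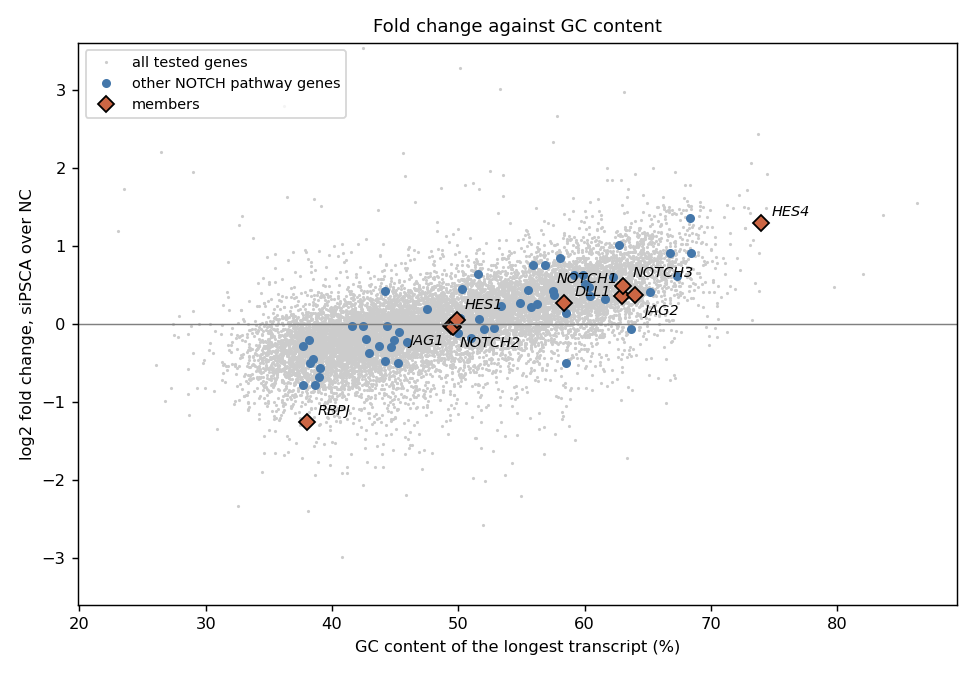
Log2 fold change of siPSCA over NC (vertical axis) against the GC content of the longest transcript in percent (horizontal axis) for all tested genes (grey), 56 other NOTCH pathway genes (blue) and the 9 tested members (orange diamonds). The cloud rises with GC content, HES4 lies near its right end at 73.9%, and RBPJ lies at 38.0% on the lower edge of the cloud.

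The rest of the pathway was read from a list of 72 further genes, of which 56 were tested and 39 (69.6%) passed the adjusted threshold, 24 higher and 15 lower in siPSCA, where 50.7% of all tested genes passed, 26.6% higher and 24.2% lower. Their median log2 fold change was 0.11. After GC and length correction 23 of the 56 passed, 13 higher and 10 lower, close to the 39.6% of all genes, and 18 genes were called in the same direction by both. The 5 other receptor and ligand genes were all under the FPKM minimum. The called genes of this list that are named here were past the threshold in the same direction without NC 3. The counts by role that follow stand against the same shares of all genes.

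The enzymes that modify and cut the receptors did not move as a block. LFNG, MFNG and RFNG encode the Fringe glycosyltransferases, which add sugar to the receptor and alter which ligand it answers to. LFNG rose from 2.12, 2.25 and 0.968 FPKM in NC to 4.74, 4.36 and 4.29 in siPSCA, a log2 fold change of 1.01 (limma adjusted p = 0.00780, SE 0.20) that was 0.78 without NC 3 and 0.42 after GC and length correction, still past the threshold. RFNG rose as well, by 0.90 on the log2 scale (limma adjusted p = 0.0480), but its value was 0.53 without NC 3, 0.13 and not past the threshold after that correction, and the call was lost without NC 2 or any 1 of the siPSCA libraries. MFNG was under the minimum.
Of the 8 genes for cleavage, 3 rose and 3 fell, and after correction 2 were called higher and 0 lower. ADAM10 and ADAM17 encode the proteases of the first cut and had log2 fold changes of -0.50 and -0.45 (limma adjusted p = 0.00177 and 0.00368). Both are poor in GC, and after GC and length correction the values were -0.07 and -0.08, not past the threshold. APH1A, a subunit of gamma-secretase, rose from a range of 14.6 to 18.9 FPKM in NC to 26.9 to 31.6 in siPSCA, a log2 fold change of 0.75, and of 0.45 after correction, past the threshold in both.

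Of the 10 tested genes for ubiquitin ligases and trafficking, 4 rose and 4 fell, and after correction 1 was called higher and 3 lower. MIB1, the ligase that drives ligand uptake in the sending cell, fell from 19.3, 20.0 and 21.1 FPKM in NC to 11.1, 11.3 and 11.4 in siPSCA, or by 0.78 on the log2 scale (limma adjusted p = 0.000437, SE 0.05). After GC and length correction it was -0.41 and still past the threshold. MIB2, its GC-rich relative, had a log2 fold change of 0.91 in the other direction, which was 0.57 without NC 3, lost its call when any 1 siPSCA library was left out, and was 0.14 and not past the threshold after correction. ITCH, a ligase that acts on NOTCH, fell by 0.57 on the log2 scale, and by 0.25 after correction, past the threshold in both.

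The nuclear partners of RBPJ went in both directions. Of 8 coactivator genes 3 rose and 1 fell, and of 13 tested corepressor genes 5 rose and 4 fell. After correction 2 coactivator genes were called higher and 0 lower, and 2 corepressor genes higher and 3 lower. Of these, the 2 coactivator genes and 3 of the 5 corepressor genes were called in the same direction before correction. MAML1, which binds RBPJ together with the cleaved receptor, rose from 12.1 to 14.0 FPKM in NC to 17.6 to 19.1 in siPSCA (log2 fold change 0.43, limma adjusted p = 0.00442), and the value was 0.20 and past the threshold after GC and length correction, though not with the replicate block added. CIR1, a corepressor that binds RBPJ, and NCOR1 fell by 0.79 and 0.51 on the log2 scale, and by 0.54 and 0.30 after correction, past the threshold in all cases. Among the genes for turnover of the cleaved receptor, CCNC, the cyclin partner of CDK8, fell by 0.69 and after correction by 0.38, past the threshold in both. FBXW7, the ubiquitin ligase subunit for the cleaved receptor, had a log2 fold change of -0.24 that passed (limma adjusted p = 0.0246), and -0.10 after correction, which did not. The call of FBXW7 was also lost without NC 2 or any 1 of the siPSCA libraries.

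Of the 9 tested genes outside the 10 that the list holds as targets, 7 rose and 1, SOX9, fell. After correction 4 were called higher and 2 lower, and without NC 3 there were 7 higher and 2 lower. The gene that did not pass was ID1, an inhibitor of bHLH factors, at -0.50 (limma adjusted p = 0.0817). Its log2 fold change was -0.80 after correction (limma adjusted p = 0.00469) and -0.74 without NC 3 (limma adjusted p = 0.000424), past the threshold in both. SOX9 and ID1 were named after their values were seen. Many of these genes answer to other pathways too, and whether NOTCH acts on each of them in these cells was not tested. HES6, a HES relative that antagonizes HES1, had an FPKM of 13.8, 12.9 and 3.99 in NC and 25.4, 25.9 and 23.6 in siPSCA, the same order of libraries as HES4. Its log2 fold change was 1.36 (limma adjusted p = 0.0332, SE 0.41), 0.85 without NC 3, not past the threshold when any 1 siPSCA library was left out, and 0.54 and not past the threshold after GC and length correction. With NC 3 also left out of the corrected fit, a combination chosen after seeing the data, the value of HES6 was 0.26 and past the threshold (limma adjusted p = 0.00288). HEYL, a relative of HEY1, rose from 3.19, 3.25 and 2.30 FPKM to 5.47, 5.04 and 4.50 (log2 fold change 0.62, limma adjusted p = 0.00756), and the value was 0.20 and past the threshold after correction (limma adjusted p = 0.0394). This corrected call was lost with the replicate block (limma adjusted p = 0.0664) and without NC 3 (limma adjusted p = 0.0693). NRARP, a feedback inhibitor of the NOTCH complex, rose from a range of 4.46 to 5.77 FPKM to one of 7.65 to 9.60, with a log2 fold change of 0.61 that turned to -0.13 after correction. CDKN1A, an inhibitor of cyclin-dependent kinases that also answers to p53, rose by 0.84 on the log2 scale and by 0.45 after correction, past the threshold in both. HES5 had 1 read in all NC libraries and 1 in all siPSCA libraries, and HEY2 had 0 and 2, so neither could be compared at this depth.

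**Figure D4:**
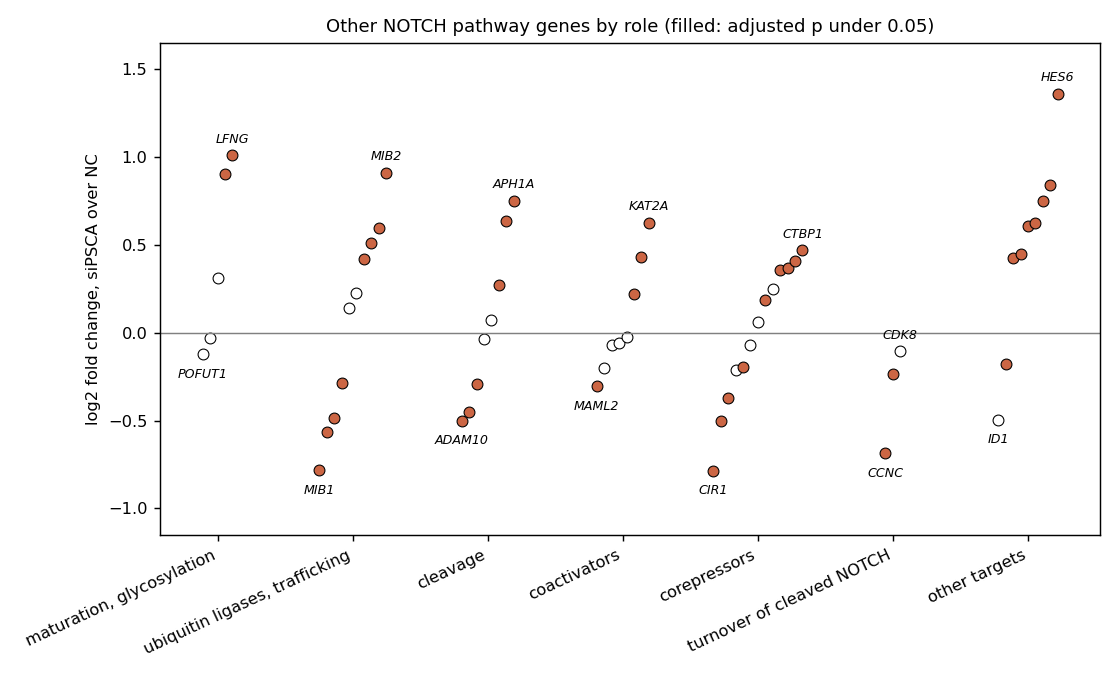
Log2 fold change of siPSCA over NC for the 56 other tested genes of the NOTCH pathway, ordered by role and, within a role, by value; filled points have an adjusted p under 0.05. Rises and falls stand side by side in most roles, from CIR1 and MIB1 at the bottom to LFNG and HES6 at the top.

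Likeness of pattern was measured for each of the 9 tested genes by the Pearson correlation of log2(FPKM + 1) over the 6 libraries with 11014 protein-coding genes outside the pathway list. With 2 groups and 1 library that stands apart, many genes have a high correlation, so it is given as a description. RBPJ was most like LMAN1, which encodes a cargo receptor of the early secretory pathway (r = 0.9998, 1636 genes over 0.95), and LMAN1 went from 31.8 to 34.2 FPKM in NC to 13.9 to 14.6 in siPSCA. NOTCH1 was most like TNFRSF25 (r = 0.999), NOTCH3 like AP4M1 (r = 0.999), HES4 like FAM160A2 (r = 0.999), and JAG2 like DUSP4 (r = 0.998). The correlation does not measure the size of a change. The log2 fold change was 0.06 for DUSP4 (limma adjusted p = 0.384) against 0.37 for JAG2, and 0.35 for FAM160A2 against 1.29 for HES4. For TNFRSF25 and AP4M1 it was 0.53 and 0.55, above the 0.36 of NOTCH1 and the 0.48 of NOTCH3. DLL1 was most like PALM (r = 0.998) and NOTCH2 like RTF2 (r = 0.995). HES1 and JAG1 had few like genes, 14 and 3 over 0.95, of which RIPK4 (r = 0.987) and PON2 (r = 0.970) came first.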

How the data were processed

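The values are FPKM as the authors deposited them, 58735 genes by 6 libraries, made from paired-end reads of NEBNext Ultra libraries. The submitters' processing notes name GRCh38; the aligner, the counting program, the strand setting and the method for calling differential expression are not given in the sources used here. Positions in GENCODE release 29 were found for each gene, and the gene length was the summed exonic bases of a gene. FPKM times length gave whole multiples of one step for 100% of values, so reads were recovered (library totals 16803235 to 18218661). Groups follow the labels; the titles of siPSCA 2 and siPSCA 3 name other HCT numbers, whereas their other labels name HCT116.
Limma 3.58.1 in R 4.3.3 (lmFit, eBayes with trend, group as the only term) was fitted to log2(FPKM + 1) of genes whose mean FPKM was 1 or more, with Benjamini-Hochberg adjustment over all of them and a threshold of 0.05. HEY1 and other genes under the minimum were taken from the same model over the 34391 genes with a read. The fold change on this scale understates that of low genes. The GC content was that of the longest GENCODE transcript, and its trend, with that of log2 length, was fitted in each library by natural splines with 5 degrees of freedom each. Shares and levels were computed with Python 3.11.15, pandas 2.3.3 and scipy 1.17.1. The fits were tested on simulated data. Promoter sequences come from RefSeq tables of GRCh38.p14, of which windows for 8 of the 10 genes were used. The 10 genes, the list of 72 further genes and the tests were chosen with earlier results of these data known. Named genes outside the 10 are, in each direction, the 6 largest called changes whose groups do not overlap, and NOTCH4, DLL3, DLL4, HES5, HEY2, HEYL, NRARP, MAML1, ADAM10, ADAM17 and FBXW7 (a further gene of the rule is not reported here); the most alike gene is the one with the highest correlation. Alternatives were a pseudocount of 0.1, no FPKM minimum, TPM, limma-voom on recovered reads, removal of the GC and length trend, a replicate block, and leaving out each library.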

Additional observations from a re-analysis of the deposited data

How the results depend on the processing

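The fall of RBPJ passed the threshold in all 14 alternatives, with log2 fold changes from -1.35 to -0.90; NOTCH2, JAG1 and HES1 passed in none of theirs. The number of the 10 genes called, 2, was 1 with a pseudocount of 0.1, without the FPKM minimum, with TPM, after removal of the GC and length trend and after that removal with a replicate block, and 4 (RBPJ, NOTCH1, NOTCH3 and HES4) with limma-voom. Leaving out single libraries gave 1 to 4, the 4 without NC 3 and 1 without siPSCA 1, siPSCA 2 or siPSCA 3. Of the 72 further genes, 39 were called, 23 after removal of the trend, 23 after removal without NC 3 (a setting chosen after seeing the data), 16 after removal with a replicate block, and 24 to 40 with single libraries left out, 25 without siPSCA 1 and 24 without siPSCA 2. Of the called values, the sign turned after removal of the trend for NOTCH1 (-0.13; -0.13 with the block; -0.12 without NC 3), NRARP (-0.13, -0.13 and -0.017), and, with NC 3 also left out, for RFNG (-0.029). Of the values that were not called, JAG2 (-0.21, and -0.31 and past the threshold with NC 3 also left out), DLL1 (-0.13), NOTCH3 (-0.02), HES1 (-0.02) and NOTCH2 (0.06) turned after removal, and HES4 (-0.09) only with NC 3 also left out. The difference in share after removal of the trend was -2.54 percentage points for NOTCH1 (2.38 before), 2.24 for NOTCH2, 0.298 for NOTCH3, 2.66 for JAG1, -2.29 for JAG2 and -0.375 for DLL1 (1.13 before, 0.500 in reads). The causes were not tested.

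Whether replicate numbers pair the libraries was not settled. Over the tested genes the deviations of same-numbered libraries correlated by 0.0955, 0.0132 and 0.134. NC 1 and NC 3 correlated best with the siPSCA library of their own number, whereas NC 2 correlated best with siPSCA 1 (0.0363). With the replicate block 3 of the 10 genes were called (RBPJ, NOTCH1 and NOTCH3). The removal of the trend used the mean of all 6 libraries as its base, so a real change that depends on GC content is removed with it. Depth limits HEY1, DLL3, HES5 and HEY2, which had at most 29 reads in a library.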

Other observations

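The 12-base run shared by the HES1 and HES4 promoter windows was also found in the windows of VIPR1, SGMS2, GHDC, LINC02277 and a pair of uncharacterized LOC genes, looked up after the run had been seen. VIPR1, a receptor for vasoactive intestinal peptide, had an FPKM of 1.07, 0.964 and 1.17 in NC and 2.84, 3.01 and 2.82 in siPSCA, a log2 fold change of 0.91 ± 0.08 (SE, limma adjusted p = 0.000843) that was 0.75 and past the threshold after GC and length correction. GHDC had a log2 fold change of 0.79 and SGMS2, a sphingomyelin synthase, one of -0.52, both past the threshold, and 0.26 and -0.17 after that correction, neither past it. Neither HES1 nor HES4 passed, LINC02277 was at 0, and 50.7% of all tested genes were called, 39.6% after correction.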
